A study of Mus musculus with 8 samples.

Results

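The mitochondrially encoded genes are the genes carried by mitochondrial DNA, and they were taken as all rows of the count table on chromosome MT. There were 37 of them among 56980 genes, and the rule itself uses the chromosome alone. They comprise 13 protein genes, 2 ribosomal RNA (rRNA) genes and 22 transfer RNA (tRNA) genes. Their RNA was measured by bulk RNA-seq in CD4+CD25+ regulatory T cells (Tregs) sorted from mouse peripheral blood, with 4 libraries from high-altitude de-acclimatization (HADA) mice and 4 from control mice. All mice were male C57BL/6j animals, bought at an age of 8 weeks. HADA mice had lived for 28 days in a hypobaric chamber set to an altitude of 6000 m and were then moved to normal oxygen, while control mice stayed in normal oxygen throughout. The day after the return on which these Tregs were sorted, and whether a library came from 1 mouse or from a pool, are not given in the sources used here, so that the p-values measure the spread between these libraries.

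Mitochondrial DNA is a small circular genome present in many copies per cell. It encodes core subunits of complexes I, III and IV of the respiratory chain and of complex V, the ATP synthase, together with the rRNAs and tRNAs that the mitochondrion uses to translate them, while complex II and all other subunits come from the nucleus. Both strands are transcribed by the polymerase Polrmt with the factor Tfam into long precursors, which are cut into single RNAs largely at the tRNAs between them. Oxidative phosphorylation is known as a main energy source of Tregs.

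The total count was between 22929193 and 28240337 in the HADA libraries and between 1477431 and 22584062 in the control libraries, where control replicate 1 was the lowest. Summed levels are given below as CPM, the usual count scaled to library size, after TMM normalization. The 6 Treg markers summed to 689 to 2255 CPM in the HADA libraries and to 231 to 608 CPM in the control libraries. Foxp3, the defining factor of Tregs, had 0 counts throughout, but other genes overlap 100% of it, so that its row checks nothing. Tnfrsf18 was at 0 as well. Il2ra, which encodes the CD25 used in the sort, was at 309, 163, 287 and 748 CPM in HADA replicates 1 to 4 and at 178, 10.5, 7.23 and 59.5 CPM in control replicates 1 to 4 (edgeR adjusted p = 0.156), and Cd4 was at 165 ± 60.03 and 107 ± 119 CPM (SD, n = 4 each). Markers of other blood cells were present. The summed level of the 10 myeloid markers was 1671 to 4417 CPM in HADA and 52.6 to 1919 CPM in control, that of the 7 platelet markers 334 to 1750 and 52.3 to 546 CPM, that of the 6 B cell markers 2003 to 6360 and 203 to 5042 CPM with Ms4a1 at 0, that of the 7 CD8 T and NK cell markers 79.7 to 943 and 8.95 to 104 CPM, and that of the 6 erythroid markers 145 to 2807 and 1027 to 28318 CPM with Alas2 at 0. The 8 T cell markers summed to 2978 to 9235 CPM in HADA and 218 to 3618 CPM in control. Their part in the results below was not tested.

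A stretch of chromosome 1 holds a nearly exact copy of part of the mouse mitochondrial genome, and this bears on which mitochondrial genes can be measured. In the GRCm39 sequence, bases 6390 to 11042 of mitochondrial DNA recur on the minus strand of chr1:24650616-24655269 with 99.9% identity, and over 4653 bases compared the 2 versions differ by 2 substitutions and 1 extra base. mt-Co2, mt-Atp8, mt-Atp6, mt-Co3, mt-Nd3 and mt-Nd4l lie wholly inside this stretch, mt-Co1 and mt-Nd4 in part, and the other 5 protein genes and both rRNA genes outside. For the 6 genes inside, 98.8% to 100% of their windows of 100 bases occur unchanged in nuclear DNA, against 30.8% for mt-Co1, 60.8% for mt-Nd4 and 0 to 3.19% for the 7 outside. Reads within such windows cannot be assigned to mitochondrial DNA or to chromosome 1 by their sequence, and how reads with several matches were counted is not given in the sources used here. The sequences below show where the copy begins within mt-Co1, the site that differs in mt-Nd3, and the start of mt-Co2, where the 2 are identical. Capitals mark the bases that differ between the members of a pair, and position numbers count from 1 along the mitochondrial genome, with the mitochondrial base first.
mt-Co1 in mitochondrial DNA, MT:6353-6433, plus strand: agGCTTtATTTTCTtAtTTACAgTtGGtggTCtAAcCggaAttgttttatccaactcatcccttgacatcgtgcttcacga
mt-Co1 copy, chr1:24655226-24655306, minus strand: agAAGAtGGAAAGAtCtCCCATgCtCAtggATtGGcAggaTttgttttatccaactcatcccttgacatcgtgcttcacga
mt-Nd3 in mitochondrial DNA, MT:9421-9501, plus strand: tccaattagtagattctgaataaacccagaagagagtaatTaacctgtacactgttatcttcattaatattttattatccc
mt-Nd3 copy, chr1:24652158-24652238, minus strand: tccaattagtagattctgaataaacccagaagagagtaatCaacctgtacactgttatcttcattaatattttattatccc
mt-Co2 in mitochondrial DNA, MT:7013-7093, plus strand: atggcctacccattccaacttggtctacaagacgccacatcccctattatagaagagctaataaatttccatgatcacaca
mt-Co2 copy, chr1:24654566-24654646, minus strand: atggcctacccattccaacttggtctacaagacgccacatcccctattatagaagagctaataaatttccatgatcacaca

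Within the copy, the first pair holds the substitution A6393T, and the other capitals of that pair lie before the copy begins. The second pair differs by T9461C, at the start of mt-Nd3. The extra base of the copy stands at position 9828, within mt-Tr.

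The position in the copy separated the mitochondrial genes by level. In HADA libraries the 7 rRNA and protein genes outside the copy had mean levels of 1802 to 29645 CPM per kb with a median of 3701, and the 6 genes inside had 9.89 to 284 CPM per kb with a median of 148, a difference of 25.0-fold between the medians. In control libraries the medians were 798 and 6.74 CPM per kb, 118-fold apart. Levels per kb of the genes inside the copy are therefore given only as listed. Among the 5 protein genes outside it, mt-Cytb had the highest mean in both groups. Its mean was 16.4-fold above that of mt-Nd5, the lowest, in HADA libraries and 15.4-fold in control libraries. Single libraries differed, since mt-Nd6 was below mt-Nd5 in HADA replicate 3 and control replicates 2 to 4. In control replicate 2 mt-Cytb was at 217 and mt-Nd5 at 60.5 CPM per kb. In HADA libraries mt-Cytb (29645 ± 8627 CPM per kb, SD, n = 4) was followed by mt-Rnr2 (8350 ± 2487), mt-Nd1 (6176 ± 1093), mt-Nd2 (3701 ± 380), mt-Rnr1 (3249 ± 1213), mt-Nd6 (2520 ± 448) and mt-Nd5 (1802 ± 355). mt-Cytb stood above all others in every HADA library, while the libraries' ranges of mt-Rnr2 and mt-Nd1 overlapped, and those of mt-Rnr1 overlapped with mt-Nd2, mt-Nd6 and mt-Nd5.

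**Figure D1:**
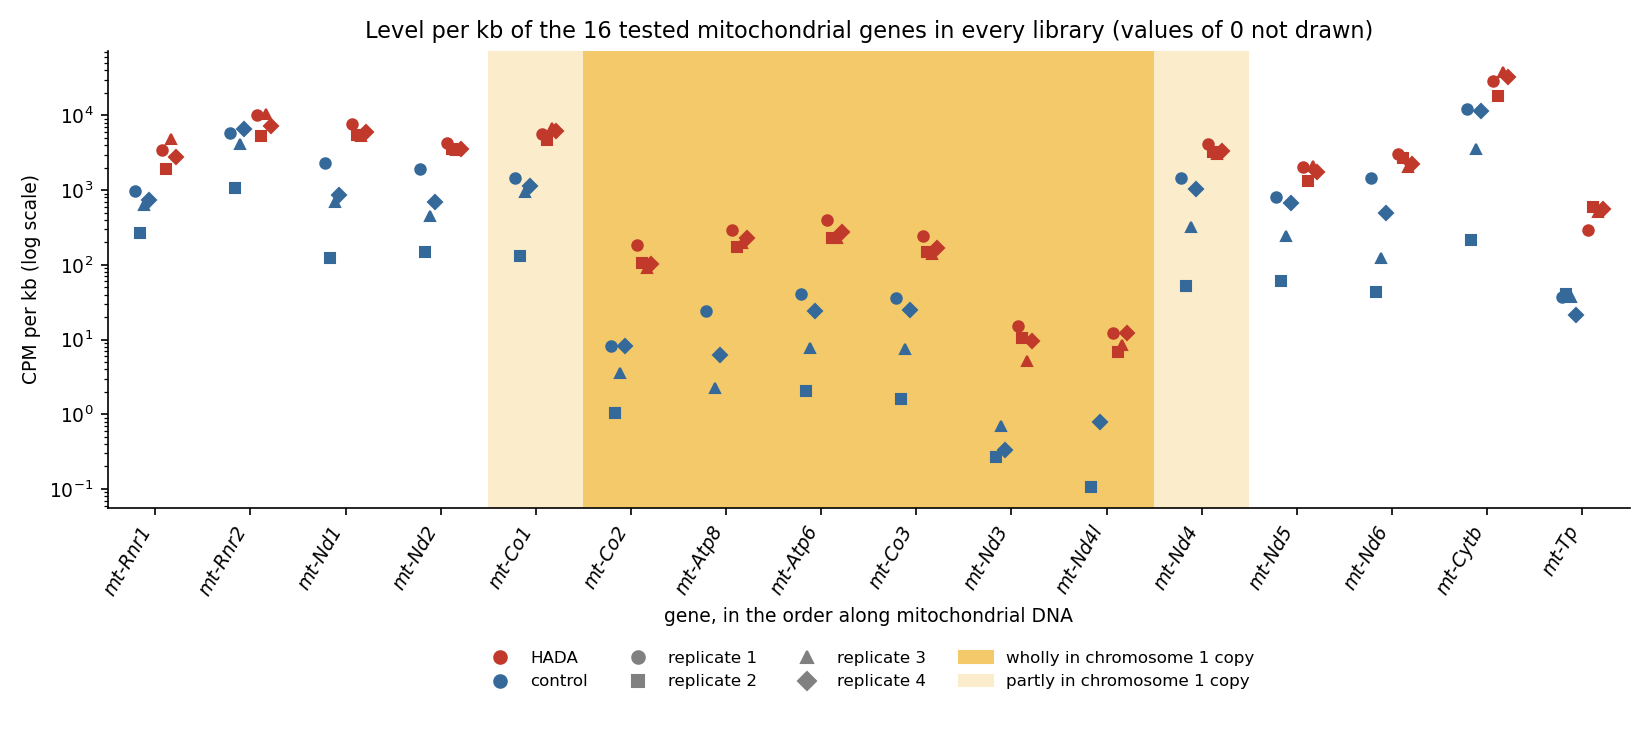
Level of the 16 tested mitochondrial genes in CPM per kb of gene (log scale) in each HADA (red) and control (blue) library, in the order of the genes along mitochondrial DNA, with shading for the chromosome 1 copy. The 6 genes inside the copy are at medians of 148 (HADA) and 6.74 CPM per kb (control), below the 3701 and 798 of the 7 rRNA and protein genes outside it.

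The first comparison asked whether the mitochondrially encoded RNAs differed in amount between HADA and control Tregs. Counts on the 37 genes made up 7.59%, 5.86%, 6.33% and 5.02% of all counts in HADA replicates 1 to 4, and 3.81%, 0.636%, 1.88% and 2.44% in control replicates 1 to 4. All HADA libraries stood above all control libraries, with control replicate 1 nearest to them. The 95% Wilson intervals of these shares reached at most 0.0309 percentage points to either side and cover counting error only. In bulk samples, fewer cells with much mitochondrial RNA and less of it per cell cannot be told apart. Counts on the 85 cytosolic ribosomal protein genes were also a larger share in every HADA library, at 5.12%, 4.78%, 4.12% and 5.35% in HADA and 3.44%, 0.411%, 0.956% and 1.15% in control replicates 1 to 4. The control libraries ranked alike in both shares. The HADA libraries did not, since replicate 4 had the lowest mitochondrial and the highest ribosomal protein share. Per 100 ribosomal protein counts there were 148, 122, 154 and 93.8 mitochondrial counts in HADA and 111, 155, 196 and 211 in control libraries, and on this scale the groups overlapped. Olfactory and vomeronasal receptor genes were taken as little used by blood cells, an assumption that was not tested. Counts over them were at 0.192, 0.196, 0.117 and 0.0762 CPM per kb of span, without TMM, in HADA and 0.0537, 0.747, 0.367 and 0.163 in control. Control replicate 2, the library with the highest receptor counts, had the lowest mitochondrial share. With this density subtracted in proportion to span, the mitochondrial share was 5.37% to 8.86% in HADA and 1.71% to 4.01% in control libraries. The subtraction took unequal parts of all counts. They were 14.4%, 15.8%, 8.82% and 6.43% in HADA replicates 1 to 4 and 5.10%, 62.9%, 29.8% and 13.2% in control replicates 1 to 4.

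**Figure D2:**
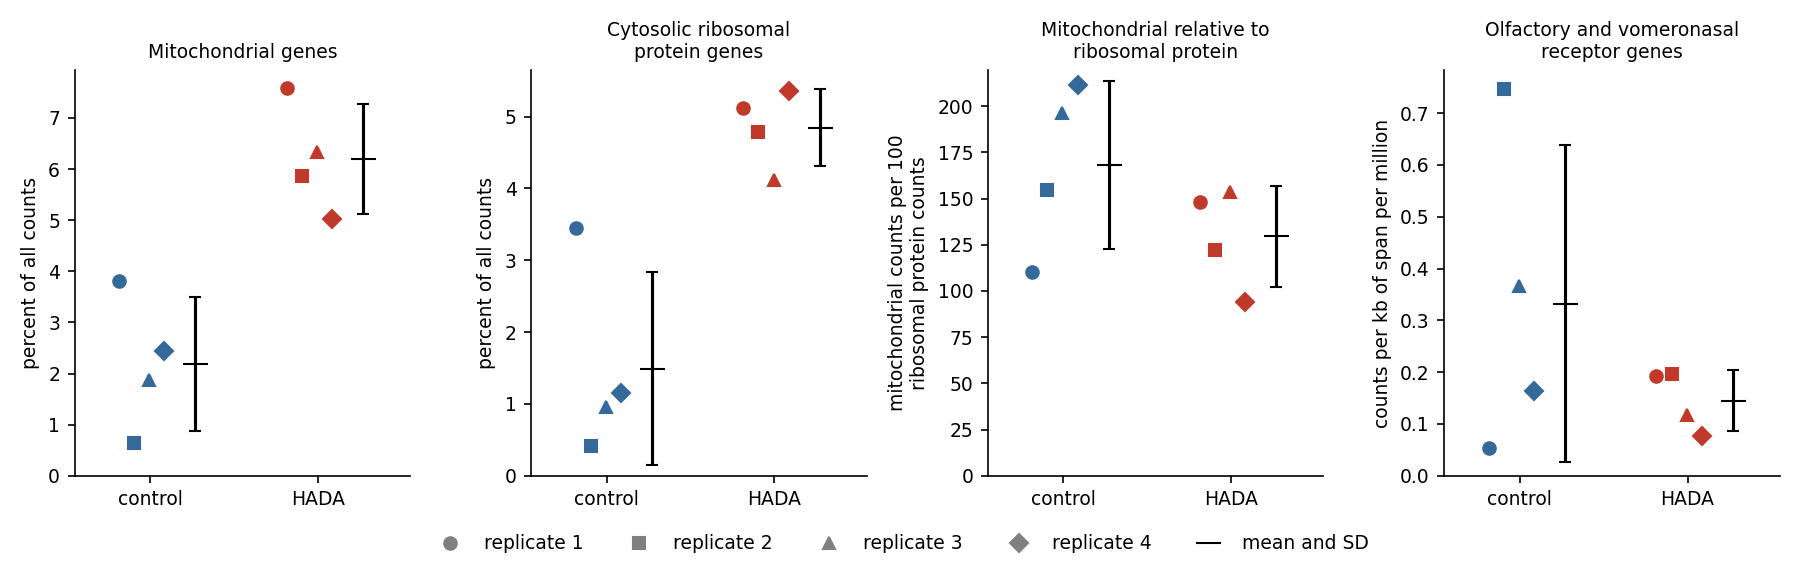
Share of all counts on mitochondrial genes and on cytosolic ribosomal protein genes (percent), mitochondrial counts per 100 ribosomal protein counts, and receptor gene CPM per kb of span, without TMM, with 1 symbol per library and the mean and SD (n = 4) beside each group. HADA libraries lie above control libraries in the first 2 panels (5.02% to 7.59% against 0.636% to 3.81% mitochondrial), and the groups overlap in the other 2.

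Of the 37 genes, 16 passed the filter on low counts and were tested, namely the 13 protein genes, both rRNA genes and mt-Tp. The edgeR quasi-likelihood test, at an adjusted p below 0.05 over all genes tested and a log2 fold change beyond 1, called 4 of them higher in HADA (mt-Co2, mt-Nd3, mt-Nd4l and mt-Tp), where 1.65% of the 21991 genes tested were called higher. It called 0 lower, where 0.477% of all genes were called lower, and 0 were lower at an unadjusted p under 0.05. All 16 fitted log2 fold changes were above 0, but with ribosomal protein counts as the library size those of mt-Rnr1, mt-Rnr2 and mt-Nd5 were below 0 (-0.52, -1.68 and -0.20), and at equal depth that of mt-Rnr2 (-0.27). Their median was 2.66, against 0.01 over all genes, and 15 of the 16 had an unadjusted p under 0.05, as did 26.7% of all genes tested. In 15 of the 16, mt-Rnr2 excepted, every HADA library stood above every control library, as in 9.13% of all genes tested. DESeq2, the tool of the study's methods, called 11 of the 24 members it fitted higher, where it called 4.84% of 41823 genes higher, and 0 members lower, where it called 7.88% of these genes lower. It gave 7 of the 24 no adjusted p. mt-Nd3 and mt-Nd4l reached the minimum of the filter, 0.439 CPM, in 0 of 4 control libraries and passed through the HADA libraries alone, so that they had to differ, and mt-Atp8 reached it in 3 of 4. The 4 genes called by edgeR were among the 5 with fewer than 10 counts in at least 1 control library, and of the 11 with at least 10 counts in every library 0 were called. Every library changed the count when left out: edgeR called 2 without any 1 of the HADA libraries, and 14, 1, 0 and 1 without control replicates 1 to 4. With the receptor density subtracted all 4 calls were lost (adjusted p from 0.098 to 0.970), and edgeR called mt-Nd1 (2.18, adjusted p = 0.043) and mt-Co1 (2.04, 0.027) instead. With all libraries drawn down to the smallest total, or with ribosomal protein counts as the library size, it called 0. Over all alternatives the adjusted p reached at most 0.469 for mt-Co2, 0.393 for mt-Nd3, 0.132 for mt-Nd4l and 0.970 for mt-Tp, and at least 7.49e-08, 1.48e-05, 3.21e-05 and 1.16e-09, from DESeq2.

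**Figure D3:**
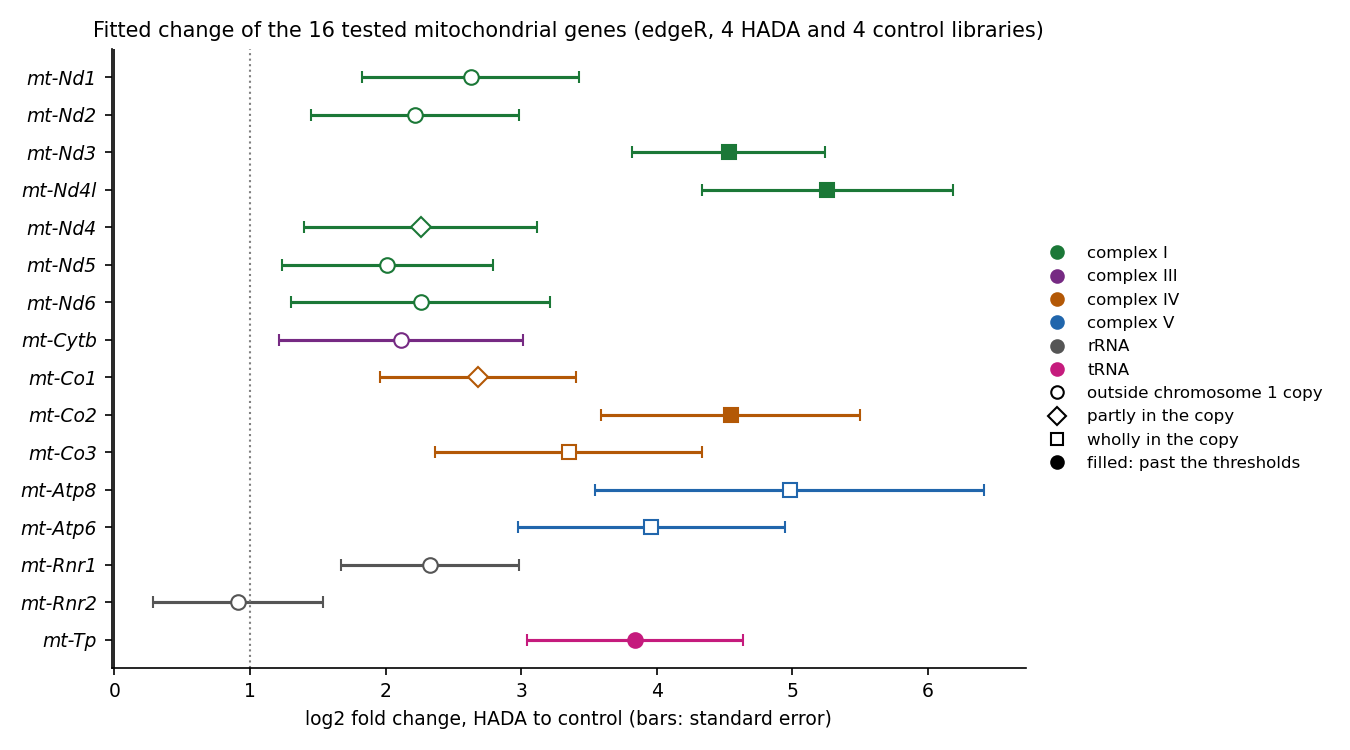
Fitted log2 fold change of HADA to control with its standard error for each tested mitochondrial gene, coloured by respiratory complex or RNA type, with the symbol giving the position relative to the chromosome 1 copy and filled symbols for genes past the thresholds. All 16 values are above 0, from 0.91 (mt-Rnr2) to 5.26 (mt-Nd4l), except on the ribosomal protein scale (3 below 0) and at equal depth (mt-Rnr2), which are not drawn, and the 6 genes inside the copy (3.35 to 5.26) lie above all rRNA and protein genes outside it (0.91 to 2.63).

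Complex I, the NADH dehydrogenase through which electrons enter the chain, takes 7 subunits from mitochondrial DNA. They summed to 22949, 17225, 17931 and 18295 CPM in HADA replicates 1 to 4 and to 8426, 476, 2087 and 4459 CPM in control replicates 1 to 4, a log2 ratio of 2.94 between the geometric means. mt-Nd1, a subunit of the membrane arm, was at 7426, 5281, 5151 and 5784 CPM in HADA and at 2221, 119, 665 and 818 CPM in control libraries. Its fitted log2 fold change of 2.63 ± 0.80 (SE) did not pass (adjusted p = 0.096), although the groups did not overlap. The proton-pumping subunits mt-Nd2, mt-Nd4 and mt-Nd5 were at means of 3842 ± 394, 4746 ± 699 and 3288 ± 648 CPM in HADA (SD, n = 4) and 828 ± 795, 991 ± 895 and 814 ± 643 CPM in control, with log2 fold changes of 2.21, 2.26 and 2.01 and adjusted p-values of 0.119, 0.138 and 0.141. mt-Nd6, the only protein gene transcribed from the opposite strand, was at 1075 to 1591 CPM in HADA and 22.4 to 748 CPM in control libraries (log2 fold change 2.26 ± 0.95, adjusted p = 0.165).

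The other complex I subunits, mt-Nd3 and mt-Nd4l, are both small membrane proteins, lie inside the chromosome 1 copy and had few counts. mt-Nd3 had 132, 86, 30 and 56 counts in HADA replicates 1 to 4 and 0, 3, 7 and 2 in control replicates 1 to 4. It rose by a log2 fold change of 4.53 ± 0.71 (adjusted p = 0.011). mt-Nd4l had 91, 48, 43 and 60 counts in HADA and 0, 1, 0 and 4 in control libraries, and rose by 5.26 ± 0.92 (adjusted p = 0.018). The groups did not overlap for either gene. The call of mt-Nd3 was lost without control replicate 2, 3 or 4 (adjusted p from 0.052 to 0.071), and that of mt-Nd4l without control replicate 2 or 3 (0.079 and 0.092). Both genes passed the filter through the HADA libraries alone, so that they had to differ. With counts of their chromosome 1 pseudogenes joined to them, both stayed past the thresholds, at 3.48 (adjusted p = 0.036) and 4.83 (0.022). These pseudogenes also had few counts in control replicates 1 to 4, at 2, 11, 0 and 13 (mt-Nd3) and 1, 2, 2 and 4 (mt-Nd4l). Reads of gene and pseudogene can seldom be told apart, so the joined fit is no separate support.

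Complex III, which passes electrons from ubiquinol to cytochrome c, has the single mitochondrial member mt-Cytb, which encodes its cytochrome b. mt-Cytb was at 32622, 20952, 44275 and 37807 CPM in HADA replicates 1 to 4 and at 14078, 248, 4022 and 13050 CPM in control replicates 1 to 4. Every HADA library was above every control library, and control replicates 2 and 3 lay far below control replicates 1 and 4. The log2 fold change of 2.11 ± 0.90 did not pass (adjusted p = 0.166).

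Complex IV, the cytochrome c oxidase that reduces oxygen, has its catalytic core in mt-Co1, mt-Co2 and mt-Co3. mt-Co1, which binds the haems of the oxygen site, was at 8727, 7339, 10481 and 9555 CPM in HADA and at 2217, 202, 1458 and 1739 CPM in control replicates 1 to 4. The groups were clearly apart, and the log2 fold change was 2.68 ± 0.72 (adjusted p = 0.073). mt-Co2, which receives electrons from cytochrome c, had 3170, 1735, 1065 and 1154 counts in HADA and 9, 23, 69 and 98 in control libraries. It rose by 4.55 ± 0.95 (adjusted p = 0.033), a call lost without any 1 library except control replicate 1 (adjusted p from 0.060 to 0.143) and lost, at 0.053, when its chromosome 1 pseudogene was joined to it. mt-Co3 was at 111 to 192 CPM in HADA and 1.25 to 27.96 CPM in control libraries (log2 fold change 3.35 ± 0.98, adjusted p = 0.088). Complex IV genes summed to 9246 ± 1321 CPM in HADA and 1421 ± 873 CPM in control (SD, n = 4), a log2 ratio of 3.14, of which mt-Co1 was nearly the whole.

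Complex V, the ATP synthase, takes mt-Atp6, which forms part of its proton channel, and the small mt-Atp8. Both lie inside the copy, and they overlap each other. mt-Atp6 was at 274, 155, 154 and 189 CPM in HADA and at 27.3, 1.41, 5.20 and 16.4 CPM in control replicates 1 to 4 (log2 fold change 3.96 ± 0.99, adjusted p = 0.059). mt-Atp8 had 1533, 850, 680 and 766 counts in HADA and 8, 0, 13 and 22 in control libraries (4.98 ± 1.43, adjusted p = 0.085). The groups did not overlap for either gene, and neither passed.

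Over the 15 rRNA and protein genes, the fitted change went with the position relative to the copy. The 6 genes inside had log2 fold changes of 3.35 to 5.26, mt-Co1 and mt-Nd4 had 2.68 and 2.26, and the 7 outside had 0.91 to 2.63. The 6 genes inside held 0.782%, 0.687%, 0.394% and 0.551% of the mitochondrial counts in HADA replicates 1 to 4 and 0.188%, 0.122%, 0.0963% and 0.141% in control replicates 1 to 4, without overlap. Of these 6 genes 5 have a listed pseudogene on chromosome 1. The pseudogenes together had 188 to 252 counts per 100 counts on the 6 genes in HADA and 238 to 323 in control libraries, although that of mt-Nd3 had 92 and 69 counts in HADA replicates 1 and 2, fewer than the 132 and 86 of mt-Nd3 itself. Joined with these pseudogenes, the genes inside reached at most 850 CPM per kb in HADA and 71.7 in control. The part of the copy in the difference between the groups was not tested.

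All 7 pseudogenes of the copy had higher levels in every HADA than in every control library, as did 9.13% of all genes tested. Gm10222, the copy of mt-Nd4l, rose by a log2 fold change of 4.72 ± 0.80 (adjusted p = 0.015), at 3.85 ± 1.053 CPM in HADA and 0.246 ± 0.262 CPM in control (SD, n = 4). This call rests on few counts, with 1, 2, 2 and 4 in control replicates 1 to 4. Gm28437, the copy of mt-Co3, was at 329 ± 38.4 and 42.6 ± 35.8 CPM (2.95 ± 0.90, adjusted p = 0.097), and Atp6-ps, the copy of mt-Atp6, at 386 ± 105 and 28.1 ± 25.7 CPM (3.79 ± 0.98, adjusted p = 0.066). Gm28661 (mt-Co2), Gm29216 (mt-Co1), Gm28439 (mt-Nd4) and Gm28438 (mt-Nd3) had log2 fold changes of 3.84, 3.58, 3.19 and 2.91, with adjusted p-values of 0.063, 0.059, 0.088 and 0.110. Where a pseudogene and its mitochondrial gene share a window unchanged, reads cannot be told apart by sequence. This holds for a smaller part of mt-Co1 and mt-Nd4 than of the genes inside the copy. It does not set their pseudogenes apart. Gm28439 (chr1:24650616-24651491) lies within the copy, and Gm29216 (chr1:24654787-24655278) reaches only slightly beyond its end at 24655269.

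The rRNA genes encode the RNAs of the 2 subunits of the mitochondrial ribosome. mt-Rnr1, the small-subunit rRNA, was at 3321, 1839, 4583 and 2669 CPM in HADA and at 920, 251, 598 and 705 CPM in control replicates 1 to 4. The groups were apart, with a log2 fold change of 2.33 ± 0.65 (adjusted p = 0.082). mt-Rnr2, the large-subunit rRNA, was at 16225, 8455, 16651 and 11510 CPM in HADA and at 9237, 1693, 6623 and 10518 CPM in control. It was the one tested member whose groups overlapped, since control replicates 1 and 4 lay above HADA replicate 2, and its log2 fold change of 0.91 ± 0.63 had an adjusted p of 0.333. With all libraries drawn down to the smallest total its value was -0.27, and with ribosomal protein counts as library size -1.68.

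In percentage points, the make-up of the mitochondrial counts differed most in mt-Rnr2 among the 14 genes with the shares computed. It held 19.2%, 15.0%, 17.7% and 14.3% of the mitochondrial counts in HADA replicates 1 to 4 and 26.4%, 58.9%, 44.7% and 34.5% in control replicates 1 to 4. Every HADA library was below every control library. The same held for the ratio of mt-Rnr2 to mt-Rnr1 counts, which was 4.89, 4.597, 3.63 and 4.31 in HADA and 10.04, 6.74, 11.1 and 14.9 in control libraries. This ratio needs no library size, and neither gene lies in the chromosome 1 copy. A stretch of chromosome 10 is 97.8% identical to mitochondrial bases 1512 to 1881, within mt-Rnr2. Of the windows of 100 bases, 1.21% of mt-Rnr2 and 0 of mt-Rnr1 occur unchanged in nuclear DNA. mt-Rnr1 itself held 3.27% to 4.86% of the mitochondrial counts in HADA and 2.31% to 8.73% in control, with overlap. mt-Co1 held 10.3% to 13.05% in HADA and 5.70% to 9.85% in control, without overlap. The largest part in HADA was mt-Cytb, with 37.3% to 47.1%, and in control libraries it held 40.3%, 8.61%, 27.2% and 42.8%, so that the groups overlapped. The 95% Wilson intervals of these shares reached at most 0.405 percentage points to either side. These shares depend on each other, since they sum to 100%, and no test was run on them.

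**Figure D4:**
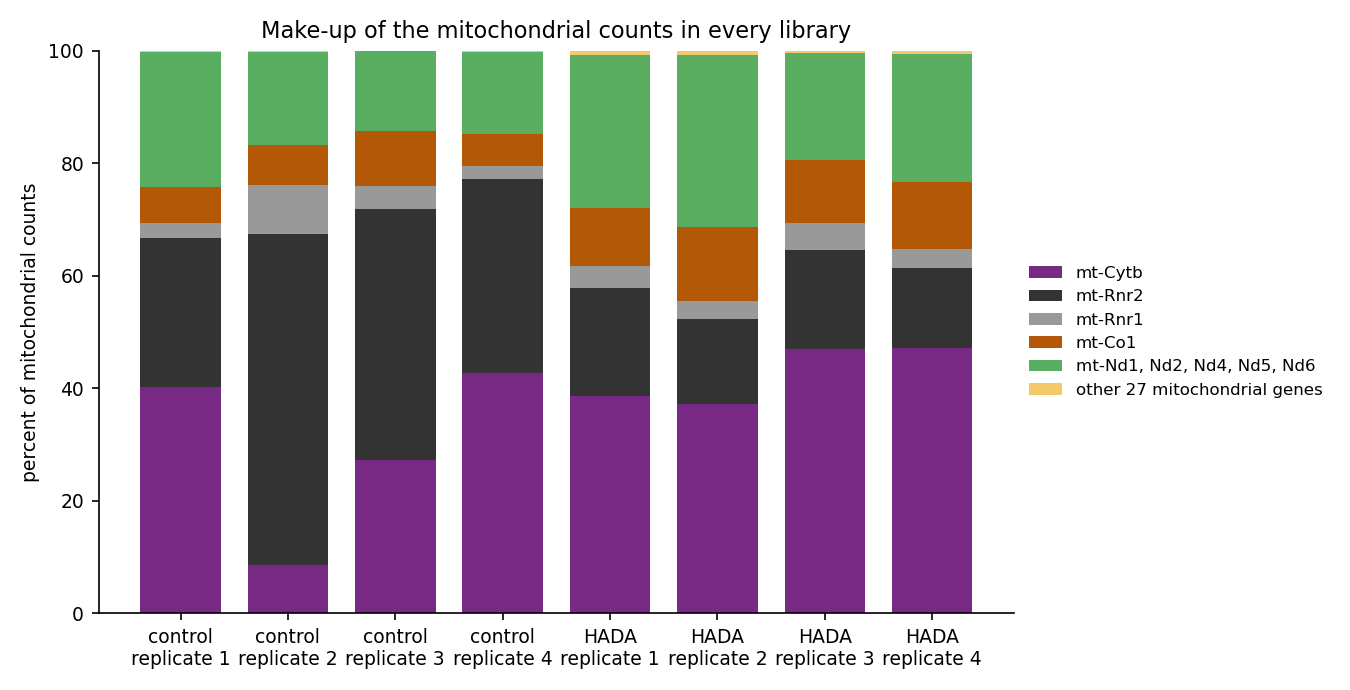
Percent of the mitochondrial counts in each library held by mt-Cytb, mt-Rnr2, mt-Rnr1, mt-Co1, 5 complex I genes together and the other 27 mitochondrial genes. mt-Rnr2 holds 14.3% to 19.2% in the 4 HADA libraries and 26.4% to 58.9% in the 4 control libraries.

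Relative to the ribosomal protein genes, the mitochondrial protein genes overlapped between the groups, and the rRNA genes were lower in HADA than in 3 of 4 control libraries. The 13 protein genes had 114, 99.9, 119 and 77.2 counts per 100 ribosomal protein counts in HADA replicates 1 to 4 and 78.4, 49.9, 101 and 134 in control replicates 1 to 4, with means of 102 ± 18.7 and 90.6 ± 35.3 (SD, n = 4). The HADA range lay within the control range. The 2 rRNA genes had 34.2, 22.4, 34.6 and 16.6 in HADA and 32.1, 104, 95.8 and 77.7 in control, with means of 26.95 ± 8.94 and 77.5 ± 32.2. Control replicate 1, the shallowest library, lay within the HADA range, and the other 3 control libraries lay above it. With ribosomal protein counts as library size the median log2 fold change of the tested mitochondrial genes was 0.40 and that of all genes -3.45.

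**Figure D5:**
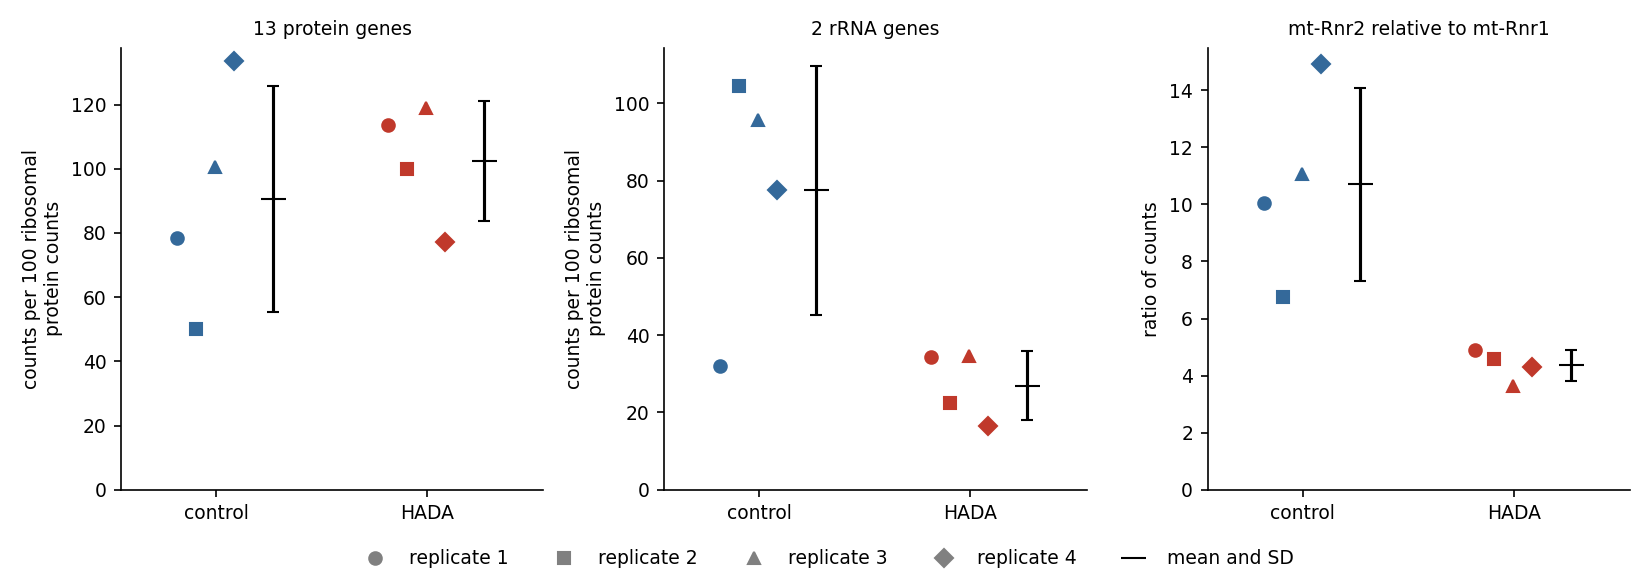
Counts on the 13 mitochondrial protein genes and on the 2 rRNA genes per 100 cytosolic ribosomal protein counts, and the ratio of mt-Rnr2 to mt-Rnr1 counts, with 1 symbol per library and the mean and SD (n = 4) beside each group. Protein genes overlap between the groups, 3 of 4 control libraries lie above all HADA libraries in the rRNA panel, and the ratio is 3.63 to 4.89 in HADA and 6.74 to 14.9 in control.

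The tRNA genes were nearly absent from the counts. Of 22, 13 were at 0 in every library, and mt-Tp held 98.3% of the 2889 counts that all tRNA genes had together. After mt-Tp, the tRNA genes with the most counts were mt-Tl1, mt-Tc, mt-Tm and mt-Ti, with at most 9 counts in any library. The 21 genes other than mt-Tp had 46 counts in all HADA libraries and 3 in all control libraries, and they were not tested by edgeR. DESeq2 fitted 8 of them and gave an adjusted p to mt-Tl1 alone (log2 fold change 3.93 ± 1.55, adjusted p = 0.059). mt-Tp, the proline tRNA at MT:15356-15422, is transcribed from the strand opposite to most mitochondrial genes, the next gene before the noncoding control region. Its 67 bases, as the reference has them on the minus strand, are printed here because it is the only tRNA gene that passed the filter of edgeR.
mt-Tp, MT:15356-15422, minus strand: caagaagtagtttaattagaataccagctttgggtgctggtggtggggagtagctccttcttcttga

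mt-Tp had 500, 957, 580 and 615 counts in HADA replicates 1 to 4 and 4, 88, 71 and 25 in control replicates 1 to 4. In CPM it was at 19.7, 40.1, 34.3 and 36.98 in HADA and 2.49, 2.76, 2.48 and 1.45 in control libraries. All HADA libraries were above all control libraries, and the control libraries stood close together. It rose by a log2 fold change of 3.84 ± 0.80, a 14.3-fold difference (adjusted p = 0.032). The call was lost without any 1 library except control replicate 1 (adjusted p from 0.057 to 0.145). It was also lost with the receptor density subtracted (adjusted p = 0.970). That subtraction went by span, which is 67 bases for mt-Tp, and was made over all genes before refitting. With it the summed tRNA level, of which mt-Tp is nearly the whole, still had a log2 ratio of 2.83. Why the call was lost was not tested. Its neighbour mt-Tt, on the other strand at MT:15289-15355, was at 0 in every library.

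The nuclear genes that copy, transcribe, process and translate mitochondrial DNA were tested in the same fit. There edgeR called 1.65% of all genes tested higher and 0.477% lower. Of the 25 genes of mitochondrial DNA replication and transcription, all tested, 0 were called by edgeR in either direction, with a median log2 fold change of 1.75. An unadjusted p under 0.05 was found for 7, a share near the 26.7% of all genes tested. DESeq2 called 5 higher and 1 lower, beside 4.84% and 7.88% of all genes. These 2 shares, here and for the lists below, are over the 41823 genes that DESeq2 fitted without the filter. Among the 21991 genes tested by edgeR, which the lists mostly hold, DESeq2 called 1856 higher and 2131 lower. Tfam, which packages mitochondrial DNA and starts transcription, was at 93.3, 71.3, 92.2 and 80.3 CPM in HADA and 70.2, 6.89, 1.43 and 30.0 CPM in control replicates 1 to 4 (log2 fold change 1.65 ± 1.03, adjusted p = 0.293). Its groups did not overlap, although HADA replicate 2 and control replicate 1 nearly met. Polrmt was at 27.3 ± 7.02 CPM in HADA and 24.2 ± 40.6 CPM in control (SD, n = 4, adjusted p = 0.939). Its single values were 28.2, 34.2, 29.2 and 17.5 CPM in HADA and 10.6, 1.38, 0.105 and 84.6 CPM in control replicates 1 to 4. Control replicate 4 was thus above all HADA libraries, and the other control libraries were below them all. Twnk, the helicase of mitochondrial DNA, was at 11.6 ± 14.7 and 1.18 ± 1.70 CPM (adjusted p = 0.138).

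Of the 50 genes of mitochondrial RNA processing, modification, stability and decay, 44 were tested, and 2 were called higher and 0 lower, with a median of 1.601. edgeR called 1.65% of all genes tested higher and 0.477% lower. DESeq2 called 6 of the list higher and 0 lower, beside 4.84% and 7.88% of all genes. Fastk, whose mitochondrial form is known to stabilise the mt-Nd6 mRNA, was at 60, 14.5, 12.2 and 6.79 CPM in HADA and 0, 0.282, 0.210 and 0.348 CPM in control replicates 1 to 4. It rose by 6.51 ± 1.12 (adjusted p = 0.016), and 36.7% of its span is overlapped by other genes. Fastk reached the minimum of the filter in 1 of 4 control libraries and in all HADA libraries. Mrm3, a methyltransferase of the mt-Rnr2 RNA, was at 35.9, 0.586, 39.3 and 74.4 CPM in HADA and at 0 to 0.908 CPM in control libraries, so that HADA replicate 2 lay among the controls (5.88 ± 1.36, adjusted p = 0.048). The call of Fastk was lost without control replicate 2, 3 or 4 (adjusted p from 0.068 to 0.092), and that of Mrm3 without any 1 library except HADA replicate 2 and control replicate 1 (0.077 to 0.145). Lrpprc, which binds and stabilises mitochondrial mRNAs, was at 43.7 ± 26.0 CPM in HADA and 89.1 ± 85.9 CPM in control (log2 fold change -1.03 ± 0.96, adjusted p = 0.473). Its partner Slirp was at 0.265 ± 0.101 and 0.553 ± 0.639 CPM and was not tested. 39.2% of the Slirp span is overlapped by other genes.

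For the translation apparatus, 1 of 21 tested mitochondrial aminoacyl-tRNA synthetases, 0 of 18 translation and insertion factors and 2 of 76 tested mitochondrial ribosomal proteins were called higher and 0 were called lower, with medians of 1.37, 1.66 and 1.62. DESeq2 called 7, 5 and 14 of these higher and 1, 0 and 0 lower, beside 4.84% and 7.88% of all genes. Of all genes tested, edgeR called 1.65% higher and 0.477% lower. Nars2, the asparaginyl-tRNA synthetase, was at 842, 659, 495 and 420 CPM in HADA and 47.2, 36.7, 28.5 and 17.5 CPM in control replicates 1 to 4, far apart, and rose by 4.22 ± 0.73 (adjusted p = 0.017). Mrps31, of the small ribosomal subunit, was at 67.8 ± 38.6 and 3.63 ± 3.12 CPM (SD, n = 4) and rose by 4.29 ± 0.98 (adjusted p = 0.045). Mrps11, also of the small subunit, was at 19.4 ± 11.2 and 1.46 ± 0.548 CPM and rose by 3.70 ± 0.84 (adjusted p = 0.045), but stood at -0.12 with ribosomal protein counts as library size. The call of Nars2 was lost without HADA replicate 1 or control replicate 3 or 4 (adjusted p from 0.070 to 0.094), that of Mrps31 without any 1 library except control replicate 1 (0.063 to 0.161), and that of Mrps11 without any 1 except HADA replicate 4 and control replicate 1 (0.072 to 0.172).

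The nuclear subunits of the respiratory complexes had medians of 1.40 to 2.79 on the log2 scale, with 1 call. Over all genes tested, edgeR called 1.65% higher and 0.477% lower. It called 0 of 37 tested complex I subunits, 0 of 4 of complex II, 0 of 9 of complex III, 1 of 15 of complex IV and 0 of 18 of complex V higher, and 0 lower in any of them. Unadjusted p-values under 0.05 were found for 15, 1, 5, 10 and 8 of these, beside 26.7% of all genes, and DESeq2 called 13, 1, 3, 9 and 7 higher and 1 complex IV gene lower, beside 4.84% and 7.88% of all genes. The median log2 fold changes were 2.38, 1.40, 2.79, 2.74 and 2.12, beside 0.01 over all genes and 2.36 over the 78 tested cytosolic ribosomal proteins, of which 1 was called. The complex IV gene called was Cox7a1, the heart and muscle form of a complex IV subunit. It was at 108, 106, 68.9 and 53.4 CPM in HADA and at 0, 0.0939, 0.210 and 0 CPM in control replicates 1 to 4, and rose by 9.64 ± 1.29 (adjusted p = 0.007). It reached the minimum of the filter in 0 of 4 control libraries and passed through the HADA libraries alone, so that it had to differ. With the receptor density subtracted its log2 fold change was 13.43 and its adjusted p 0.066.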

How the data were processed

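Reads were checked with FastQC, trimmed with Trimmomatic, aligned to GRCm39 with STAR and counted with featureCounts, per the study's methods and the submitters' processing notes. No versions, strand or multi-mapping settings are given in the sources used here. The deposited values are raw counts per gene, without normalization, over the span of each gene, which equals the length column for 100% of genes. Gene names came from GENCODE release M39 (98.7% of 56980 identifiers found), in which all 37 mitochondrial genes have the deposited coordinates. All 8 libraries differed in their counts. Libraries were grouped by their labels and fitted as unpaired.

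All genes were tested with edgeR 4.0.16 (TMM, filterByExpr, quasi-likelihood test) in R 4.3.3, with Benjamini-Hochberg adjustment over the 21991 genes tested and thresholds of 0.05 for the adjusted p and 1 for the log2 fold change. Standard errors (SE) came from the fold change and its F. DESeq2 1.42.0 and limma 3.58.1 were alternatives, and each method was tested on simulated data. Other alternatives were other library sizes, other filters, equal depth, subtraction of the count density over 1256 receptor genes, the replicate block and each library left out. Others were chosen after seeing the data: counts of the chromosome 1 pseudogenes joined to their genes, and sums or medians without the genes in the copy. Nuclear copies were found with blastn 2.17.0 in GRCm39 at 97% identity or more. Sums, shares and medians over the members are descriptions without a test.

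The members and lists were chosen with earlier results of these data known. All protein and rRNA genes, the 5 tRNA genes with the most counts, up to 4 genes per list past the thresholds, the pseudogenes of the copy and some regulators and markers are named, and Gm10925 stands here under its present name, Atp6-ps. Total counts were 1477431 to 28240337. A floor of 3 counts was fixed for every library and does not follow from these totals. Smaller counts are given above as they stand.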

Additional observations from a re-analysis of the deposited data

Results flagged for a closer look

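Among 76 groups of 4 libraries examined (each tested gene's level, each summed class, the shares and the make-up), 2 held a library whose gap to the nearest other was large against the range of its group. Chance gives about 1 in 20 such groups. mt-Nd2 in HADA replicate 1 was at 12.11 log2 CPM, and the other HADA libraries were at 11.82 to 11.85. mt-Tp held 0.0958% of the mitochondrial counts in control replicate 2, and 0.00475% to 0.0168% in the other control libraries.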

How the results depend on the processing

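Between 0 and 14 mitochondrial genes were called higher when single libraries were left out (4 with all libraries). The count was 0 with ribosomal protein counts as library size and at equal depth, 1 with at least 10 counts in every library, 2 with the receptor density subtracted (0 of the 4 among them), 2 with the replicate block, 10 with limma and 11 with DESeq2, and 3 to 5 otherwise. It was 0 lower throughout. With ribosomal protein counts as library size the median log2 fold change moved from 2.66 to 0.40, and the summed log2 ratios of complexes I, III, IV and V to 0.17, 0.39, 0.37 and 2.05, of tRNA genes to 1.07 and of rRNA genes to -1.46. That scaling moved the median of all genes to -3.45, so that relative to all genes the mitochondrial median was 3.85. mt-Rnr1, mt-Rnr2 and mt-Nd5 turned to -0.52, -1.68 and -0.20, and the mitochondrial share, per 100 ribosomal protein counts, to a difference of -38.7 from 4.01 percentage points of all counts. At equal depth the median was 1.56 and the sums were 1.70, 1.89, 1.90 and 3.75 for complexes I, III, IV and V, 0.067 for rRNA and 2.75 for tRNA, and mt-Rnr2 was at -0.27. With the receptor density subtracted the median was 2.11 and the sums were 1.92, 2.13, 2.12 and 3.89 for these complexes, 0.29 for rRNA and 2.83 for tRNA, and with total counts 3.18 for tRNA. The subtraction moved the median of all genes from 0.01 to 0.998. Relative to all genes, the mitochondrial median was thus 1.11 with the subtraction and 2.64 in the main fit. The cause of these shifts was not tested.

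With 1 library left out, the median was 2.29 to 3.59, the share difference 3.49 to 4.55 percentage points, and the summed log2 ratios 2.15 to 3.67 (complex I), 1.86 to 3.94 (III), 2.35 to 3.64 (IV), 3.98 to 5.62 (V), 0.75 to 1.68 (rRNA) and 3.70 to 4.02 (tRNA). The 329 gene values under alternatives kept direction and side of the thresholds in 258 cases, lost the call in 36, gained one in 31 and reversed in 4. Only the 4 genes called in the main fit could lose a call, so all 36 losses fell on them. The 258 include uncalled genes that stayed uncalled and are no measure of how stable the calls were. Same-numbered HADA and control libraries did not deviate together (correlations -0.207, 0.252, -0.081 and -0.003), so the numbers behind the replicate block, under which 2 genes were called, are not taken as a pairing. Without the genes the copy covers in whole or in part, the median of the other 8 was 2.24. Control replicate 1, with 1477431 counts, limits what genes of few counts can show.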

Other observations

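Beside the copy on chromosome 1, stretches of at least 97% identity to mitochondrial DNA lie on chromosome 2 (chr2:22477300-22480546, 97.4% identical to mitochondrial bases 4441 to 7699), chromosome 5 (chr5:60200061-60200442, 97.9%), chromosome 10 (chr10:95913387-95913756, 97.8%) and chromosome 12 (chr12:97028202-97028566, 99.7% identical to bases 15675 to 16039, in the noncoding control region).

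The ratio of mt-Cytb to mt-Nd1 counts, which needs no library size, was 4.39, 3.97, 8.59 and 6.54 in HADA replicates 1 to 4 and 6.34, 2.08, 6.05 and 15.96 in control replicates 1 to 4, with overlap. mt-Nd6 and mt-Nd5 overlap at their ends and are transcribed from opposite strands. The ratio of mt-Nd6 to mt-Nd5 counts per base was 1.51, 2.02, 0.981 and 1.30 in HADA and 1.80, 0.713, 0.520 and 0.732 in control libraries, where control replicate 1 stood among the HADA libraries and the other 3 below them. Whether counting used strand is not given in the sources used here, so reads in the overlap of the genes cannot be told apart.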
